A study of Mus musculus with 10 samples.

Results

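The epithelial alarmins TSLP, IL-33 and IL-25 and the chains of their receptors were followed in inflamed mouse skin as 8 genes of the 19175 in the deposited table, taken by gene symbol. They are the 3 ligand genes Tslp, Il33 and Il25 and the 5 receptor chain genes Crlf2, Il7r, Il1rl1, Il1rap and Il17rb. Poly(A) RNA was sequenced from skin of C57BL/6 mice in the MC903 model, in which the vitamin D analogue MC903 (calcipotriol) causes an itchy, type 2 dermatitis. The 10 libraries were 5 labelled basophils VAMP7 CKO, a conditional knockout of the vesicle SNARE Vamp7 in basophils (CKO below), and 5 labelled basophils VAMP7 Flox, the floxed controls (Flox below). All 10 came from the MC903 model, so none shows untreated skin. The sources used here do not give the Cre driver, the age or sex of the mice, the time of sampling, or whether a library stands for 1 animal. The p-values thus set the difference between the groups against the variation among these libraries, and that variation may be technical.

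Alarmins are cytokines that barrier epithelium makes or releases when it is damaged or exposed to irritants, and they act on innate lymphoid cells, mast cells, basophils, dendritic cells and T cells to start type 2 inflammation. TSLP signals through a pair of chains, CRLF2 and IL7R, to Janus kinases and STAT5. IL-33 signals through IL1RL1 (ST2) with the shared chain IL1RAP to MYD88 and NF-kappaB, and IL-25 signals through IL17RB with IL17RA. In mouse skin, vitamin D analogues such as MC903 act on keratinocytes to induce Tslp, and basophils carry receptors for TSLP and IL-33.

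Values are FPKM, fragments scaled by transcript length and by library size, so levels of different genes can be set side by side. Each log2 fold change is the CKO mean minus the Flox mean of log2(FPKM + 1), a scale that understates changes of low genes. A library summed to 525369 to 581022 FPKM, and the read depth is unknown. The targeted gene, Vamp7, ranged over 17.3 to 19.2 FPKM in CKO libraries and 18.1 to 22.5 FPKM in Flox libraries. Since other skin cells carry Vamp7 too, these values do not check the labels. The keratins Krt5 and Krt14 of basal keratinocytes were at 669 FPKM or more in all 10 libraries, as skin should hold. The libraries differed in skeletal muscle markers, which summed to 483 to 1763 FPKM in CKO and 331 to 546 FPKM in Flox. Of 19 markers 16 were tested and 0 called. All 16 were higher in CKO, 15 of them at an unadjusted p under 0.05 in limma, against 15.1% of all genes tested. The muscle score, their mean log2(FPKM + 1), was 4.19 to 5.98 in CKO and 3.63 to 4.29 in Flox. Fits with this score as a covariate therefore cannot fully part muscle RNA from the groups. The highest sum, 1763 FPKM, was that of CKO replicate 1, which also had the lowest array quality weight (0.272, against 0.561 to 2.12 in the others). In bulk skin, fewer cells of a type and less RNA per cell cannot be told apart.

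None of the alarmin or receptor genes passed the test between CKO and Flox. Of the 8 genes, 7 had 1 FPKM or more in 5 or more libraries and so entered the test. In limma, 0 of these 7 had an adjusted p under 0.05, and 1, Il17rb, had an unadjusted p under 0.05. Across all 13186 genes tested, 0.106% were called, with 0.0455% higher and 0.0607% lower in CKO, and 15.1% had an unadjusted p under 0.05. CKO and Flox values overlapped for all 7, whereas 4.23% of all genes had separate groups. The fold changes were positive for 3 and negative for 4 of them, with a median of -0.029, against -0.027 over all genes tested.

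Per transcript length, Il33 and Tslp were the most abundant of the 8 genes and Il25 was close to absent. Over the 10 libraries Il33 averaged 104 ± 21.7 FPKM and Tslp 93.9 ± 30.8 FPKM (SD, n = 10), and Il33 was above Tslp in 8 of 10 libraries. Il1rl1 followed at 37.4 ± 14.8 FPKM, Il1rap at 26.2 ± 4.50 FPKM and Crlf2 at 24.1 ± 2.42 FPKM. Il1rl1 was above Il1rap in 10 of 10 libraries, and Il1rap above Crlf2 in 7 of 10, so the order of Il1rap and Crlf2 was not fixed. Il7r at 13.8 ± 2.75 FPKM and Il17rb at 2.14 ± 0.446 FPKM lay clear of their neighbours, without any overlap of their ranges.

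**Figure D1:**
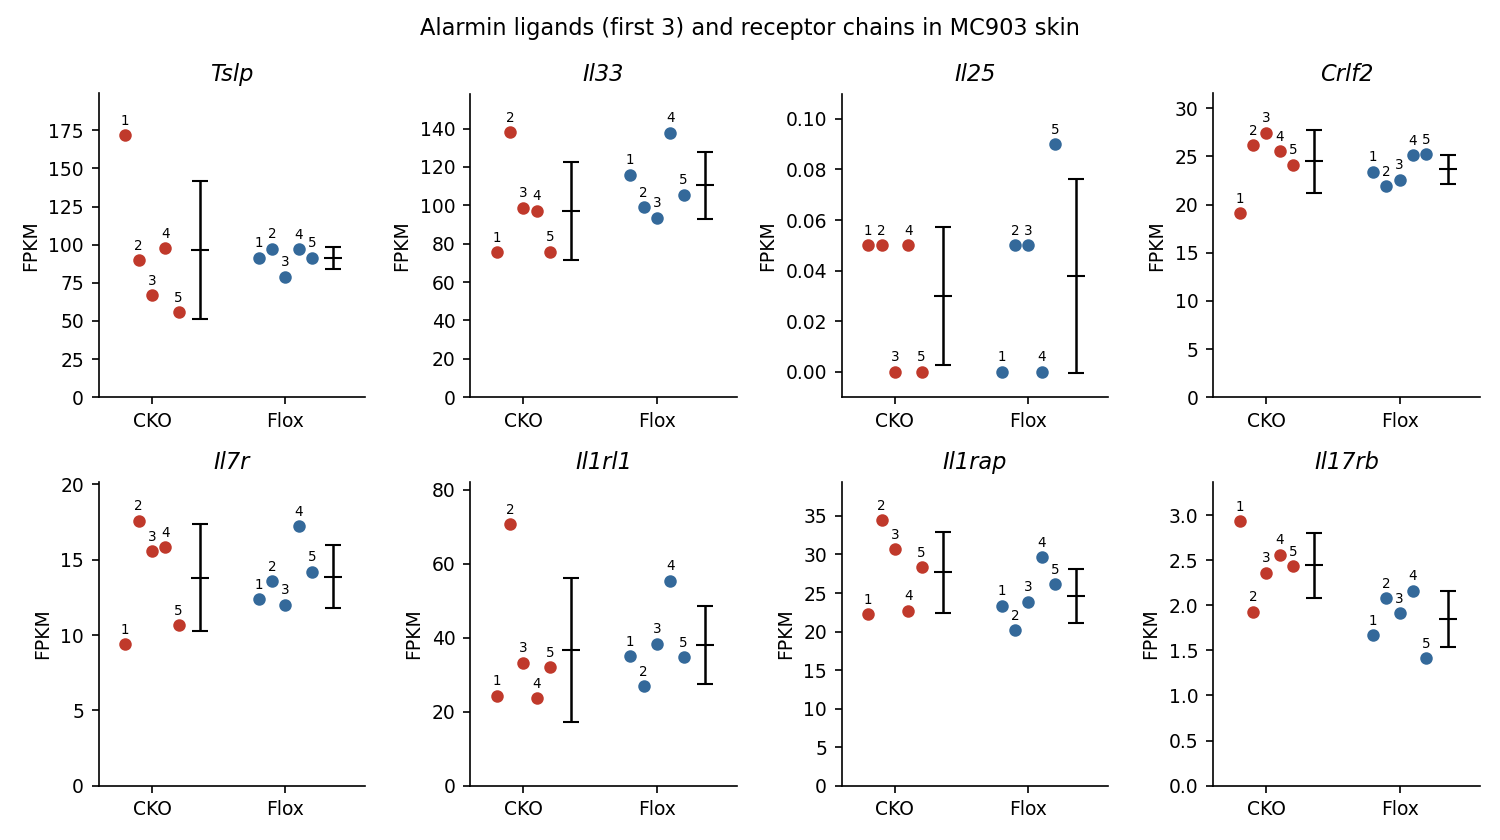
FPKM of the 3 alarmin ligand genes and the 5 receptor chain genes in each library, CKO (red) left of Flox (blue), with replicate numbers beside the points and mean ± SD as bars (n = 5 per group). The points of both groups overlap in every panel, CKO replicate 1 is highest for Tslp at 172 FPKM, and CKO replicate 2 is highest for Il1rl1 at 70.7 FPKM.

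Tslp, the cytokine gene that MC903 induces in keratinocytes, had a similar mean in both groups and a wider spread in CKO. The SD in FPKM was larger in CKO for all 7 tested genes, but the share over all genes was not determined. Relative to the mean, Il17rb alone among the 7 spread less in CKO, with a coefficient of variation of 14.8% against 16.7% in Flox. Tslp was at 172, 90.0, 66.9, 97.8 and 55.8 FPKM in CKO replicates 1 to 5, against 91.5, 97.5, 79.0, 97.2 and 91.5 FPKM in Flox replicates 1 to 5. CKO replicates 1 and 4 lay above every Flox library and CKO replicates 3 and 5 below every one. The mean was 96.5 ± 45.4 FPKM in CKO and 91.3 ± 7.48 FPKM in Flox, and the coefficient of variation 47.1% in CKO and 8.19% in Flox. The log2 fold change was -0.029 with a 95% interval of -0.57 to 0.51 (limma adjusted p = 0.973). Without CKO replicate 1, the library with the most muscle RNA, the CKO mean was 77.6 ± 19.6 FPKM (SD, n = 4) and the log2 fold change -0.26 (limma adjusted p = 0.463). The sign turned to 0.074 without CKO replicate 3 and to 0.14 without CKO replicate 5. With the muscle score added to the model, the log2 fold change was -0.58 (limma unadjusted p = 0.0146, adjusted p = 0.470). In that fit 1245 of 13186 genes had an unadjusted p under 0.05 in limma. The part of muscle RNA in the Tslp values was not tested further.

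Il33, which encodes a nuclear cytokine released from damaged keratinocytes, endothelium and fibroblasts, was somewhat lower on average in CKO, within the spread of the libraries. It was at 75.6, 138, 98.8, 97.2 and 75.9 FPKM in CKO replicates 1 to 5, against 116, 99.0, 93.6, 138 and 105.4 FPKM in Flox replicates 1 to 5. CKO replicates 1 and 5 lay below every Flox library, while CKO replicate 2 was level with the highest one. The mean was 97.1 ± 25.4 FPKM in CKO and 110.4 ± 17.5 FPKM in Flox, and the log2 fold change was -0.21 (95% interval -0.57 to 0.16, limma adjusted p = 0.603). In all 18 alternative fits the value stayed negative, between -0.34 and -0.046, with an adjusted p of 0.251 or more.

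Il25, the IL-17 family cytokine gene known as IL-17E, was the lowest of the 8 genes, at 0.09 FPKM or less in all 10 libraries. It was at 0.05, 0.05, 0, 0.05 and 0 FPKM in CKO and at 0, 0.05, 0.05, 0 and 0.09 FPKM in Flox, in values rounded to 2 decimals. It was listed at 0 in 4 of 10 libraries, 2 of each group. No fold change is given for it, and an exact two-sided permutation test of log2(FPKM + 1) over all assignments of the libraries to 5 and 5 gave p = 1. A difference in Il25 was not detectable at this level.

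Of the TSLP receptor pair, Crlf2 (the TSLP-binding chain) was the more abundant and the steadier gene. It was at 19.1, 26.2, 27.5, 25.5 and 24.1 FPKM in CKO, against 23.4, 21.9, 22.6, 25.1 and 25.3 FPKM in Flox. CKO replicate 1 was the lowest of the 10 libraries, and CKO replicates 2, 3 and 4 lay above every Flox library. The log2 fold change was 0.039 with a 95% interval of -0.16 to 0.24, the narrowest of the 7 (limma adjusted p = 0.886). Without CKO replicate 1 the value was 0.12, and without CKO replicate 3 it was -0.0035. Il7r, the chain shared with the IL-7 receptor of T cells and innate lymphoid cells, was at 9.39, 17.6, 15.6, 15.8 and 10.7 FPKM in CKO, against 12.4, 13.6, 12.01, 17.2 and 14.2 FPKM in Flox. CKO replicates 1 and 5 lay below every Flox library and CKO replicate 2 above. The log2 fold change was -0.033 with a 95% interval of -0.40 to 0.33 (limma adjusted p = 0.954), and it was 0.086 without CKO replicate 1. The summed T cell markers (7 measured, 7 tested, 0 called, none at 0 in every library) were lowest in the same CKO replicates 1 and 5, at 38.5 and 68.1 FPKM. They were at 96.6 to 105 FPKM in the other CKO libraries and 75.4 to 100.02 FPKM in Flox, and their part in the Il7r values was not tested. Crlf2 exceeded Il7r in 10 of 10 libraries, by a ratio of 1.49 to 2.26 in CKO and 1.46 to 1.89 in Flox.

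Il1rl1, which encodes the IL-33 receptor ST2 on mast cells, basophils, regulatory T cells and type 2 innate lymphoid cells, varied widely between libraries. The annotation gives it more than 1 start, and RefSeq holds promoter windows for a pair of starts that lie 10059 bases apart on chromosome 1. In mouse the upstream start is known for its use in haematopoietic cells such as mast cells, and the downstream start for its use in fibroblasts. The 250 bases before each start are shown because the FPKM of the gene may add up transcripts of both starts. Another reason is that GATA2, known to act on Il1rl1 in mouse mast cells, is itself a basophil marker. Both are RefSeq sequences of GRCm38.p6, plus strand, at chr1:40429320-40429569 and chr1:40439379-40439628; the build used for the table is not given in the sources used here. Capitals mark GATA hexamers on either strand, spelled AGATAA or AGATAG or TGATAA or TGATAG.
Il1rl1 upstream start: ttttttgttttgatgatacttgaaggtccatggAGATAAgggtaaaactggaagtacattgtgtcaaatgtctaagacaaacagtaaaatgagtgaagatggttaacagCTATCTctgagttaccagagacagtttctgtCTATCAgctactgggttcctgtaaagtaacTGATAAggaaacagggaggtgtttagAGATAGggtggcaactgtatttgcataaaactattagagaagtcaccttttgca
Il1rl1 downstream start: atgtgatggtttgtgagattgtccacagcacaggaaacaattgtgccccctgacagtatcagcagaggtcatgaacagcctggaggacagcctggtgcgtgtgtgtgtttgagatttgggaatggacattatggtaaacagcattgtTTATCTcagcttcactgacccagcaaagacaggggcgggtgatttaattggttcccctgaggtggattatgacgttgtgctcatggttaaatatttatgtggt

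The upstream window held 5 GATA hexamers, in no overlap with each other, and the downstream window held 1. Of all 32851 promoter windows of 250 bases in the RefSeq table, 26.5% held at least 1, 1.35% at least 3 and 0.0426% at least 5. These shares were not matched for base composition. The upstream window was 37.6% G and C, and the downstream window 46.4%. A match describes letters and is not evidence of a bound site. Gata2 itself averaged 12.2 ± 3.39 FPKM in CKO and 26.8 ± 2.62 FPKM in Flox, without overlap (log2 fold change -1.11, limma adjusted p = 0.0463). With the muscle covariate, 0 genes were called in limma, Gata2 included, and 1245 had an unadjusted p under 0.05. Il1rl1 was at 24.3, 70.7, 33.2, 23.7 and 32.04 FPKM in CKO, against 35.0, 26.9, 38.4, 55.4 and 34.7 FPKM in Flox. CKO replicate 2 was the highest of the 10 libraries and CKO replicates 1 and 4 the lowest, so that both ends of the range were CKO libraries. The mean was 36.8 ± 19.4 FPKM in CKO and 38.1 ± 10.55 FPKM in Flox, and the log2 fold change was -0.13 (95% interval -0.76 to 0.49, limma adjusted p = 0.878).

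Without CKO replicate 2, the Il1rl1 mean in CKO was 28.3 ± 5.02 FPKM (SD, n = 4), and the log2 fold change was -0.39 (limma adjusted p = 0.353). It was 0.011 without Flox replicate 4 and 0.29 with the muscle covariate, so these libraries fix no direction for it. The values cannot tell transcripts of membrane ST2 from those of the soluble decoy form, which is made from the same gene. Marker sums of 4 cell types that carry ST2 are set beside these values. Summed basophil markers (10 of 10 tested, 4 lower in CKO, 0 higher, none at 0 in every library) were at 96.5 to 165 FPKM in CKO and 306 to 369 FPKM in Flox, without overlap. Summed mast cell markers (7 tested, 0 called, none at 0 in every library) were at 659 to 797 FPKM in CKO and 563 to 821 FPKM in Flox. Summed markers of type 2 innate lymphoid cells (7 of 8 tested, 0 called) were at 315 to 458 FPKM in CKO and 465 to 565 FPKM in Flox, also without overlap. Most of that sum is Arg1, at 242 FPKM on average in CKO and 343 FPKM in Flox, an enzyme that macrophages also express. Summed markers of regulatory T cells (5 tested, 0 called, 2 at an unadjusted p under 0.05 in limma) were at 28.7 to 49.0 FPKM in CKO and 39.1 to 48.3 FPKM in Flox, with overlap. The part of these cells in the Il1rl1 values was not tested.

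Il1rap, the signalling chain that ST2 shares with the IL-1 and IL-36 receptors, was at 22.2, 34.5, 30.7, 22.7 and 28.3 FPKM in CKO, against 23.4, 20.2, 23.9, 29.6 and 26.1 FPKM in Flox. CKO replicates 2 and 3 lay above every Flox library, and none below. The log2 fold change was 0.15 with a 95% interval of -0.14 to 0.45 (limma adjusted p = 0.632), and it stayed positive in all 18 alternative fits, between 0.073 and 0.36. Il1rl1 exceeded Il1rap by a ratio of 1.04 to 2.05 in CKO and 1.33 to 1.87 in Flox.

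Il17rb, the IL-25-binding receptor chain, had the lowest p of the group in the fit without covariate. It was at 2.93, 1.93, 2.36, 2.56 and 2.43 FPKM in CKO, against 1.67, 2.08, 1.91, 2.16 and 1.41 FPKM in Flox. CKO replicates 1, 3, 4 and 5 lay above every Flox library, and CKO replicate 2 lay within the Flox range. The mean was 2.44 ± 0.361 FPKM in CKO and 1.85 ± 0.308 FPKM in Flox, 1.32 times as high. The log2 fold change was 0.27 (SE 0.096) with a 95% interval of 0.063 to 0.49, which is not adjusted for the number of genes tested. Over all genes tested it did not pass (limma adjusted p = 0.233, unadjusted p = 0.0159), and 15.1% of all genes had an unadjusted p under 0.05. The value stayed positive in all 18 alternative fits, from 0.13 with the muscle covariate to 0.39 with a pseudocount of 0.1, and its adjusted p was 0.157 to 0.722 there. With the muscle covariate the unadjusted limma p of Il17rb was 0.259, above those of Tslp (0.0146) and Il1rap (0.0335). The Il17rb ligand gene Il25 was near 0 in the same libraries.

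**Figure D2:**
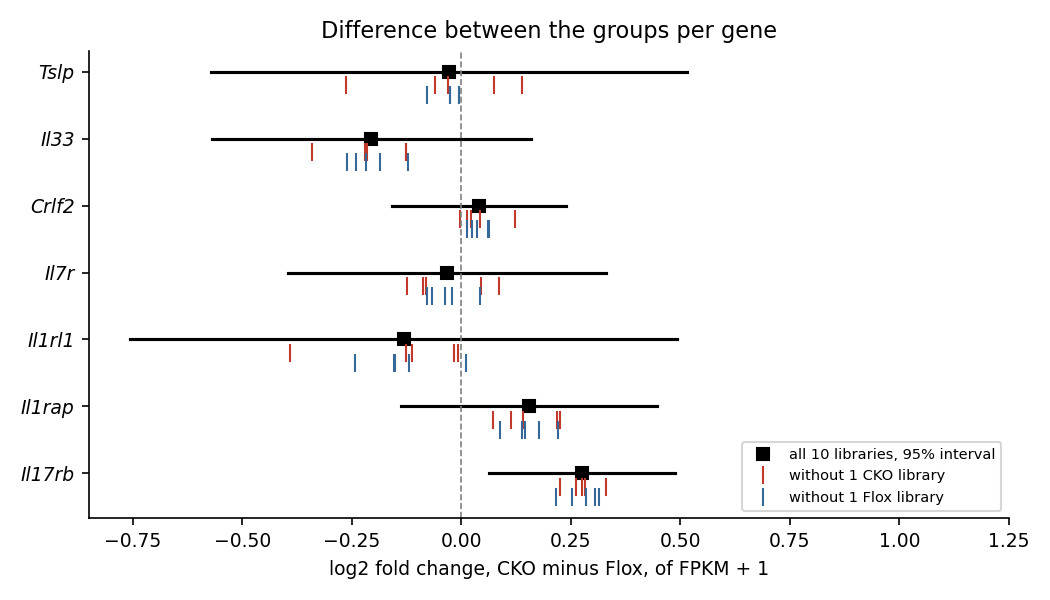
Log2 fold change, CKO minus Flox, of FPKM + 1 for the 7 tested genes (black square, with its 95% limma interval as a line), and the values with 1 CKO (red) or 1 Flox (blue) library left out. The interval of Il17rb, 0.063 to 0.49, lies above 0 before adjustment, the other 6 intervals span 0, and the values of Tslp, Crlf2, Il7r and Il1rl1 fall on both sides of 0 when single libraries are left out.

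Some of the receptor chains varied together across the libraries. Of 8 ligand and receptor pairs compared over the 10 libraries on log2(FPKM + 1), 3 passed by Pearson's r with p-values adjusted over the 8 pairs. By Spearman's rho 0 passed. How often other gene pairs reach such r in these libraries was not determined, so the count cannot be read as particular to these pairs. Crlf2 and Il7r, the TSLP receptor pair, had r = 0.80 (permutation p = 0.00462, adjusted p = 0.0192) and rho = 0.77 (permutation p = 0.0125, adjusted p = 0.0924). Without CKO replicate 1 and Flox replicate 2, the libraries farthest from the Crlf2 median, r was 0.73. Il33 and its receptor Il1rl1 had r = 0.78 (permutation p = 0.00719, adjusted p = 0.0192) and rho = 0.70 (permutation p = 0.0306, adjusted p = 0.0924). This relation rests on CKO replicate 2 and Flox replicate 4, which were highest for both genes, since r was 0.37 without them. Il1rl1 and Il1rap had r = 0.78 (permutation p = 0.00660, adjusted p = 0.0192) and rho = 0.68 (permutation p = 0.0346, adjusted p = 0.0924). Without CKO replicate 2 and Flox replicate 4 their r was 0.50, so this relation also leans on them.

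Each of these 3 relations lost its call when 1 of CKO replicate 1, CKO replicate 2 or Flox replicate 4 was left out. Crlf2 with Il7r then had r of 0.64, 0.78 and 0.81, Il33 with Il1rl1 had 0.74, 0.69 and 0.72, and Il1rl1 with Il1rap had 0.75, 0.63 and 0.76. Without Flox replicate 4 the r of Crlf2 with Il7r did not fall (permutation p = 0.00708, adjusted p = 0.0566). The adjustment also depends on the p-values of the other pairs, so that lost call does not show a weaker relation. The ligand Tslp did not follow its receptor. Tslp and Crlf2 had r = -0.65 (permutation p = 0.0512, adjusted p = 0.102), which came to -0.16 without CKO replicate 1 and passed, at -0.78 (adjusted p = 0.0438), without CKO replicate 5. Tslp with Il7r, at r = -0.21, turned to 0.55 without CKO replicate 1. Tslp and Il33 had r = -0.024 (permutation p = 0.951) over all 10 libraries and 0.67 (permutation p = 0.0540, adjusted p = 0.133) without CKO replicate 1, where Tslp was at its highest and Il33 at its lowest. Il33 with Il1rap (r = 0.47) and Il25 with Il17rb (r = -0.28) did not pass either.

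**Figure D3:**
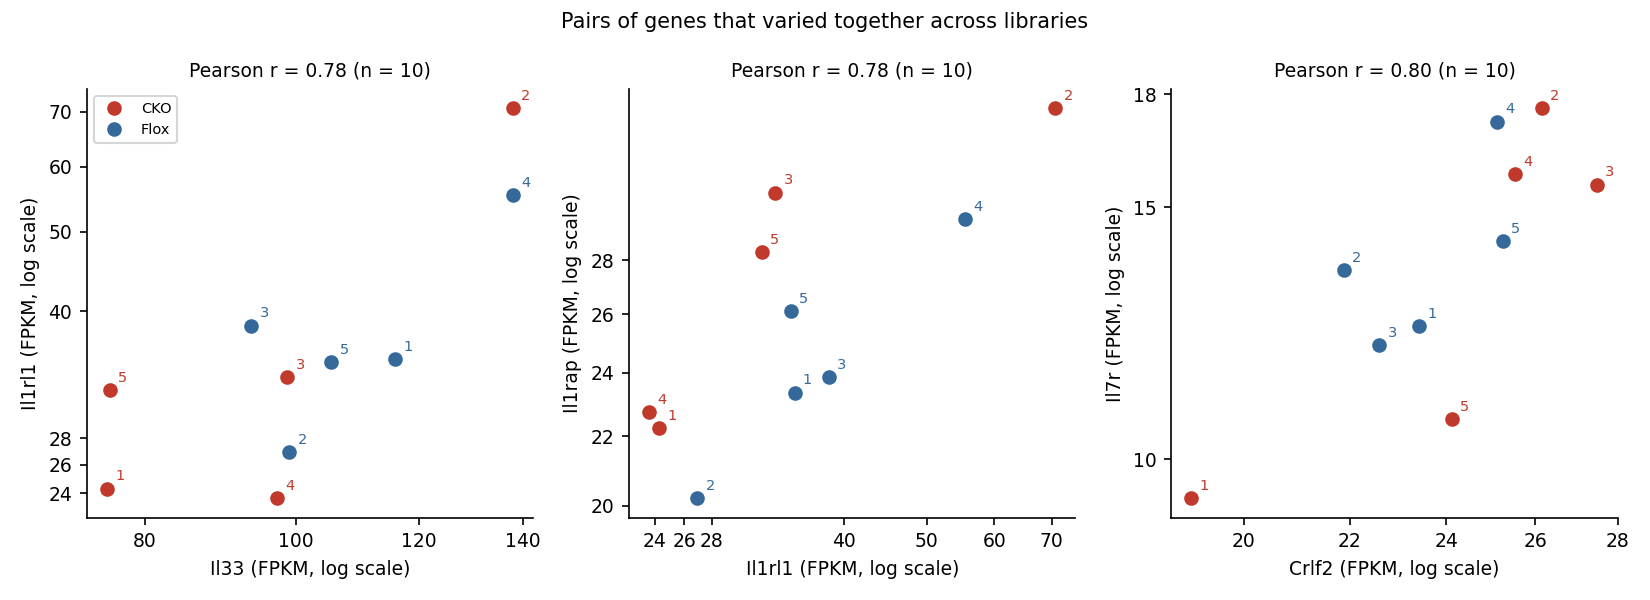
FPKM of 3 gene pairs in the 5 CKO (red) and 5 Flox (blue) libraries, on log axes, with replicate numbers beside the points and Pearson's r of log2(FPKM + 1) above each panel. CKO replicate 2 and Flox replicate 4 sit at the upper right for Il33 with Il1rl1, whose r is 0.78 with and 0.37 without them, and CKO replicate 1 sits at the lower left for Crlf2 with Il7r.

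The genes whose levels ran most like each tested gene over the 10 libraries are given as a description with no test. They are the top pair by Pearson's r among the genes tested, without the alarmin and receptor genes themselves and without unnamed gene models. For Tslp they were Plpbp (r = 0.92) and Cluh (r = 0.92), and without CKO replicate 1 the values were 0.86 and 0.78. For Il33 they were Pla2g4a, the cytosolic phospholipase A2 (r = 0.95), and Rabl2 (r = 0.92). For Crlf2 they were the lysosomal thioesterase Ppt1 (r = 0.98) and the ion channel Trpv2 (r = 0.98), and for Il7r the T cell adaptor Grap2 (r = 0.96) and the apoptosis effector Bak1 (r = 0.96). Il1rl1 ran with the cytokine gene Il11 (r = 0.93), which was at 1.13 to 6.86 FPKM, and with Oaf (r = 0.92). Il1rap ran with the transmembrane collagen Col23a1 (r = 0.97) and the metalloreductase Steap2 (r = 0.96), and Il17rb with Arhgef37 (r = 0.92) and Rnf220 (r = 0.92). The libraries share tissue makeup and scaling, and each named gene was picked for its high r among the many genes ranked. How far CKO replicate 2 carries the r values of Il1rl1 was not determined.

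Pathway genes around the alarmins, from upstream and signalling genes to targets and receptor relatives, did not pass as single genes. Several lay apart between the groups, most of them targets. In 8 lists with 75 different genes, 67 were tested and 0 passed over all genes tested (limma adjusted p under 0.05), with 18 at an unadjusted p under 0.05. That is 26.9% of them, against 15.1% of all genes tested. The lists were chosen with earlier results of these data known, so such shares are a description and no evidence of an excess. CKO and Flox were separate for 7 of the 67, or 10.4%, against 4.23% of all genes. Of these 7, Cish and Stat3 are in the TSLP pathway list. The others are the alarmin targets Ccl24, Il6, Il4 and Areg and the IL-18 receptor gene Il18r1. In the TSLP pathway list, 12 of 12 genes were tested, 0 passed in either direction, and the median log2 fold change was -0.096. Cish, a feedback inhibitor that STAT5 induces, was at 8.64 ± 0.395 FPKM in CKO and 11.7 ± 1.10 FPKM in Flox, without overlap (log2 fold change -0.40, SE 0.063), and just missed the threshold (limma adjusted p = 0.0507). Socs3, a feedback inhibitor of STAT3, was at 69.8 ± 9.67 FPKM in CKO and 49.2 ± 9.36 FPKM in Flox (limma adjusted p = 0.135). Stat3 itself was at 79.4 ± 3.37 FPKM in CKO and 70.5 ± 4.64 FPKM in Flox, without overlap (log2 fold change 0.17, limma adjusted p = 0.211).

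In the IL-33 pathway list, 15 of 15 genes were tested, 0 passed in either direction, and the median was 0.074. Irak3, an inhibitory member of the IRAK kinase family, was at 12.4 ± 1.48 FPKM in CKO and 9.92 ± 0.936 FPKM in Flox (limma adjusted p = 0.192). Irak4, the kinase at the start of MYD88 signalling, was at 13.6 ± 1.47 FPKM in CKO and 16.1 ± 1.21 FPKM in Flox (limma adjusted p = 0.219). Traf6, the ubiquitin ligase that follows the IRAK kinases, was at 11.2 ± 0.996 FPKM in CKO and 9.96 ± 0.678 FPKM in Flox (limma adjusted p = 0.323). Of the IL-25 pathway list, 6 of 6 genes were tested and 0 passed in either direction, with a median of 0.0012. Its members of lowest p beside Traf6 were the adaptors Traf5, with a log2 fold change of -0.26, and Traf3ip2 (ACT1), with 0.15.

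Among genes that act upstream of Tslp in keratinocytes, 13 of 13 were tested, 0 passed, and the median was 0.12. The members of lowest p were the IL-1 receptor Il1r1, at 49.3 ± 8.35 FPKM in CKO and 38.6 ± 6.64 FPKM in Flox, the retinoid receptor Rxrb with a log2 fold change of 0.12, and F2rl1, the protease receptor PAR2, with -0.26 (limma adjusted p = 0.295, 0.359 and 0.407). Of the proteases that can cut IL-33, 5 of 8 were tested, 0 passed, and the median was -0.18. The protease Ctsg was at 1.37 ± 0.716 FPKM in CKO and 2.78 ± 0.944 FPKM in Flox (limma adjusted p = 0.205). The mast cell tryptase Tpsb2 had a log2 fold change of 0.29 (limma adjusted p = 0.520).

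The list of type 2 genes downstream of alarmins, mostly cytokines and chemokines with Arg1 and Retnla, had the lowest median of the 8 pathway lists. Of 15 genes 10 were tested, 0 passed, 8 had a negative and 2 a positive log2 fold change, and the median was -0.43. Ccl24, Il6 and Il4 had the lowest p, with log2 fold changes of -1.31, -0.66 and -1.15 and no overlap of the groups (limma adjusted p = 0.0651, 0.0739 and 0.0845). Areg, the epidermal growth factor family member amphiregulin, was next and lay the other way without overlap. It was at 28.2 ± 5.81 FPKM in CKO and 18.6 ± 1.83 FPKM in Flox (log2 fold change 0.56, limma adjusted p = 0.0962), and it is named here after its values were seen. Il5, Il9 and Il31, products of type 2 lymphocytes, were at 0.19 FPKM or less in every library, and Csf2 and Tnfsf4 were at 1.15 FPKM or less, so these 5 were not tested. Basophils express Il4 and Il6, and the summed basophil markers were lower in the same CKO libraries (96.5 to 165 FPKM in CKO and 306 to 369 FPKM in Flox). Summed eosinophil markers (4 of 6 tested, 0 called, 4 at an unadjusted p under 0.05 in limma, none at 0 in every library) were at 8.34 to 12.4 FPKM in CKO and 12.6 to 22.9 FPKM in Flox, also without overlap, and the defining marker Epx was at 0.07 FPKM or less. The part of either cell type in these values was not tested.

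**Figure D4:**
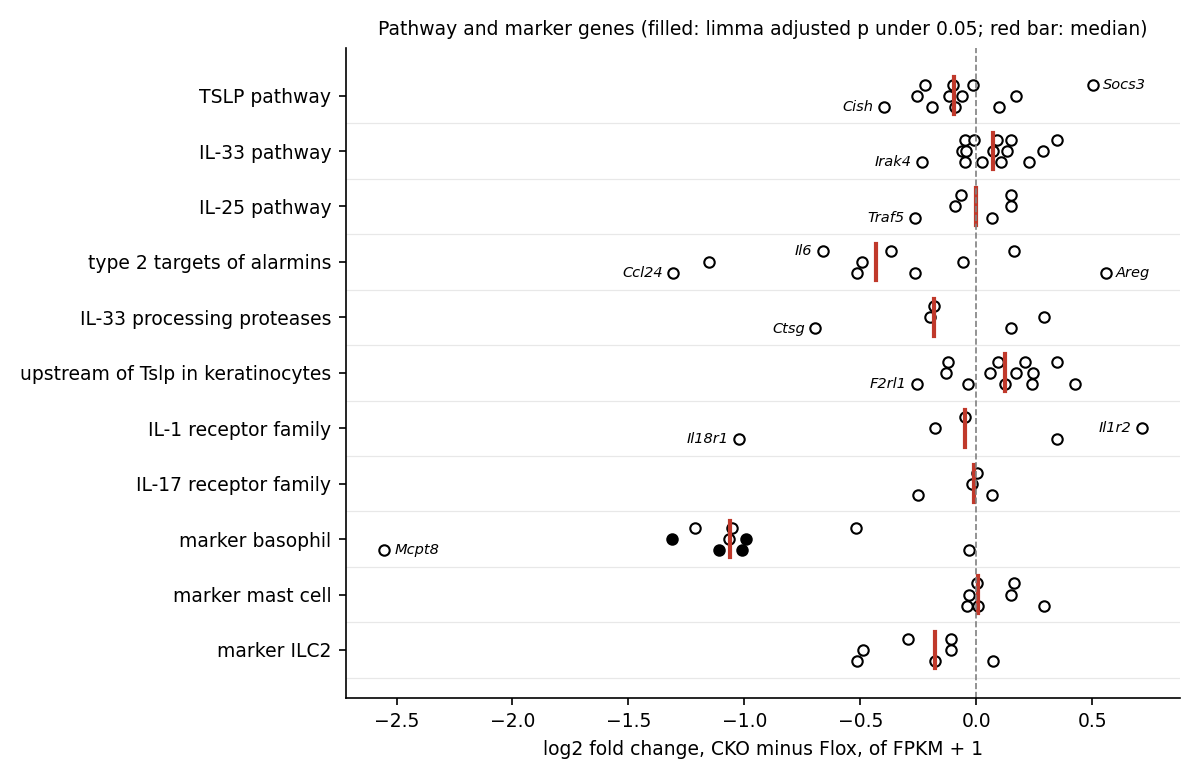
Log2 fold change, CKO minus Flox, of FPKM + 1 for each tested gene of 8 pathway lists and 3 marker lists, with the median of a list as a red bar and genes with a limma adjusted p under 0.05 filled. Filled points occur in the basophil marker list alone, which has 4 of them, and the medians of the TSLP, IL-33 and IL-25 pathway lists lie between -0.096 and 0.074.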

How the data were processed

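Poly(A) RNA of mouse skin was read as single-end reads of 50 bases, per the labels' protocols. The authors deposited 1 table of FPKM values for 19175 genes, per the file headers, rounded to 2 decimals. The submitters' processing notes name HISAT as the aligner. The counter, its genome build and annotation, and the treatment of reads shared by related genes were not given in the sources used here. Counts are absent from the table. Depth is therefore unknown, and counting intervals cannot be had.

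Here, limma-trend (limma 3.58.1, R 4.3.3) was fitted to log2(FPKM + 1). It covered 13186 genes, those reaching 1 FPKM in 5 or more libraries, with 5 CKO and 5 Flox libraries and no covariate. Tests were two-sided, with Benjamini-Hochberg adjustment over all genes tested and a threshold of 0.05. The fit was tested on simulated data. Il25, below the filter, had an exact permutation test. Correlations had permutation tests with 100000 resamples (numpy 2.4.6). Promoter sequences were RefSeq windows of GRCm38.p6, found for 6 of the 8 genes. Alternatives were a pseudocount of 0.1, no or a looser filter (0.1 FPKM), array quality weights, quantile normalization, equal totals, a muscle covariate, the replicate number as a block and each library left out. Those of the correlations were added after the data were seen.

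Pathway genes were named by rule, the 3 of lowest p in a list. Genes that run alike were the top 2 by Pearson's r, without the alarmin and receptor genes and unnamed gene models. A gene that the rule names in the protease list is not reported here by name. The members and lists were chosen with earlier results of these data known.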

Additional observations from a re-analysis of the deposited data

Results flagged for a closer look

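Of 33 genes checked in both groups, 66 groups of 5 libraries in all, 4 held a library far from the other 4. Chance flags about 1 in 20 groups. Among the alarmin and receptor genes this was Il1rl1 in CKO replicate 2, at 70.7 FPKM, while the other CKO libraries were at 23.7 to 33.2 FPKM. Its neighbour in the plot of pairs, Flox replicate 4, was not far enough from the other Flox libraries to be listed. Among pathway genes, Il4 was at 12.8 FPKM in Flox replicate 2 and 7.30 to 8.18 FPKM in the other Flox libraries. Socs3 was at 65.3 FPKM in Flox replicate 4 and 42.2 to 48.3 FPKM in the other Flox libraries. Il17rd was at 1.33 FPKM in Flox replicate 5 and 0.94 to 0.99 FPKM in the others.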

How the results depend on the processing

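No alarmin or receptor gene passed in any of 18 alternative fits, and the lowest adjusted p among 126 values (limma) was 0.157, that of Il17rb without CKO replicate 2. Of these 126 values 116 kept their direction and 10 changed it. Il7r turned to 0.10 under array quality weights and 0.11 under the muscle covariate, and Il1rl1 to 0.29 with that covariate. With single libraries left out, the log2 fold change ranged from -0.26 to 0.14 for Tslp, -0.0035 to 0.12 for Crlf2, -0.12 to 0.086 for Il7r and -0.39 to 0.011 for Il1rl1. The mean difference of Il25 on log2(FPKM + 1) ranged from -0.024 to 0.0070. The correlation ranged from -0.78 to -0.16 for Tslp with Crlf2, -0.60 to 0.55 for Tslp with Il7r, 0.64 to 0.89 for Crlf2 with Il7r, 0.69 to 0.85 for Il33 with Il1rl1, 0.63 to 0.86 for Il1rl1 with Il1rap, -0.50 to 0.16 for Il25 with Il17rb and -0.43 to 0.67 for Tslp with Il33. Over all genes, 6 were higher and 8 lower in CKO. These counts were 1 and 2 with no filter and with the looser filter, 30 and 60 with array quality weights, and 2 and 6 with equal totals. They were 0 and 0 with the muscle covariate in limma, with 1245 genes at an unadjusted p under 0.05. Without 1 library they ranged from 0 to 11 and from 0 to 15, and both were 0 without any 1 of Flox replicates 1, 2, 3 and 5, where limma gave an unadjusted p under 0.05 to between 1498 and 1822 genes. With the replicate block both were 0 in limma, with 1911 genes at an unadjusted p under 0.05. Deviations of same-numbered libraries correlated between -0.21 and 0.21, and CKO replicate 5 alone correlated best with its own number. No pairing by number was seen, but correlations this weak cannot exclude it. The cause of these changes was not tested. Low FPKM limits Il25 most, which was listed at 0 in 4 of 10 libraries.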

Other observations

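Relatives of the alarmin receptors gave a mixed picture. The IL-1 receptor genes lie side by side on mouse chromosome 1, in the order Il1r2, Il1r1, Il1rl2, Il1rl1, Il18r1 and Il18rap in RefSeq GRCm38.p6. Of the 5 neighbours of Il1rl1, all were tested and 0 passed over all genes (limma adjusted p under 0.05). In limma 3 of the 5 had an unadjusted p under 0.05, against 15.1% of all genes tested. Separate groups were seen for 4.23% of all genes. The list was chosen with earlier results of these data known, so these counts are a description and no evidence of an excess. Il18r1, the IL-18 receptor chain next to Il1rl1, was at 5.28 ± 1.77 FPKM in CKO and 11.3 ± 1.31 FPKM in Flox, without overlap (log2 fold change -1.02, SE 0.20, limma adjusted p = 0.0739). Il1r2, the decoy receptor at the other end, was at 175 ± 39.6 FPKM in CKO and 106 ± 21.5 FPKM in Flox (log2 fold change 0.71, limma adjusted p = 0.135). Il1rl1, between them, had a log2 fold change of -0.13. Of 4 other IL-17 receptor genes, all were tested and 0 passed, with 0 at an unadjusted p under 0.05. Il17ra, the chain that pairs with IL17RB, was at 24.3 ± 5.75 FPKM in CKO and 22.8 ± 3.48 FPKM in Flox, and exceeded Il17rb per transcript length. Il17rc, with the lowest p of these 4, was at 16.1 ± 2.88 FPKM in CKO and 19.3 ± 2.55 FPKM in Flox (log2 fold change -0.25, limma adjusted p = 0.365). Il17rd had a log2 fold change of -0.018.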
